A study of Mus musculus with 15 samples.

Results

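Messenger RNA levels of 10 mouse genes for glutathione and antioxidant enzymes were followed in C2C12 cells in which the transcription factor MLX had been raised, disturbed or lowered. The genes were Gsta4, Gstm1, Gclc, Gclm, Nqo1, Hmox1, Txnrd1, Sod1, Sod2 and Sod3. They were chosen by symbol from the 23352 genes of the deposited table, and all 10 had exactly 1 row there. All 10 also passed the minimum for testing, an FPKM of 1 or more in 3 or more libraries. FPKM is the number of fragments scaled by transcript length and library depth.

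Glutathione is a small thiol peptide. The first step of its synthesis is catalysed by glutamate-cysteine ligase, whose catalytic subunit is encoded by Gclc and whose regulatory subunit is encoded by Gclm. Glutathione S-transferases attach glutathione to reactive compounds, superoxide dismutases turn superoxide into hydrogen peroxide, and thioredoxin reductase keeps thioredoxin reduced. Many of these genes are known targets of NRF2 (Nfe2l2), a transcription factor that is held back by KEAP1 and that binds antioxidant response elements in competition with BACH1. Working muscle makes reactive oxygen species, and the superoxide dismutases and the glutathione system are part of its normal defence.

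C2C12 is a line of mouse myoblasts, the cells that fuse to form skeletal muscle fibres. All cells carried a vector. There were 3 libraries in each of 5 groups: cells with a lentiviral construct for wild-type MLX (MLX-WT), for a dominant-negative MLX (MLX-DN) or for a hairpin RNA directed against Mlx (MLX shRNA), a vector expressing GFP alone (GFP control), and a lentiviral non-targeting shRNA (NT shRNA). MLX binds DNA together with partners such as MondoA and ChREBP, which respond to glucose. The labels give no promoter for the constructs, no hairpin sequence, no time after transduction and no number of clones. Nor do they say if libraries with the same label are separate cultures, so the p-values cover only library-to-library spread, which may be technical.

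Mlx RNA followed the labels, with group means of 17.1 FPKM in each control, 644 with MLX-WT, 394 with MLX-DN and 3.21 in MLX shRNA cells, though RNA does not show the dominant-negative action. Depth was estimated as 36.8 to 82.7 M reads per library from the step size of low values. Within a group, libraries had correlations of 0.998 to 0.999 across the 11945 tested genes, which are not independent replicates. The 7 muscle lineage markers in the table were Myod1, Myf5, Myog, Des, Cdh15, Pax7 and Tmem8c. Each reached 1 FPKM in some library, and they summed to 2257 to 2496 FPKM in every library. Des alone had group means of 1056 to 1190 FPKM, so the sum hides differences in other markers. Myog ran from a mean of 445 FPKM in the GFP control to 706 in MLX-DN cells. Myf5 ran from 3.76 in NT shRNA to 12.9 in MLX-WT cells. Pax7 ran from 0.872 in the GFP control to 4.22 in MLX shRNA cells. The part of such marker differences in the results below was not tested. Endothelial, adipocyte and hepatocyte markers summed to at most 0.519 FPKM, and epithelial markers to at most 1.86. The leukocyte list summed to 5.52 to 5.80 FPKM with MLX-DN and to at most 2.38 elsewhere. Its member Ptprc averaged 4.55 FPKM with MLX-DN and at most 0.00330 in the other groups, while Emr1 was at 0 throughout. The part of these in the MLX-DN results was not tested. Most tested genes were called in each comparison, and centring every library on its median moved the balance of all tested genes from 3300 higher and 5100 lower to 4511 and 3775 with MLX-WT against the GFP control. The same step moved it from 3892 and 5831 to 5017 and 4660 with MLX-DN, and from 3674 and 4695 to 4675 and 3716 with MLX shRNA.

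Across the 10 genes, Gsta4 and Sod3 differed most between groups and the other 8 differed less. Gsta4 was highest with MLX shRNA, and Sod3 was lowest there. The highest group mean was 27.8 times the lowest for Sod3, 3.73 times for Gsta4, 2.64 for Nqo1 and 1.93 for Gstm1. It was 1.25 to 1.47 times for the other 6. Against the GFP control, 9 of the 10 changed with MLX-WT (7 higher and 2 lower), where limma called 70.3% of all tested genes at an adjusted p under 0.05 (27.6% higher and 42.7% lower). With MLX-DN 9 changed (5 higher and 4 lower) beside a background of 81.4% (32.6% and 48.8%), and these comparisons share the GFP control libraries. With MLX shRNA against NT shRNA 9 changed (3 higher and 6 lower) beside 70.1% (30.8% and 39.3%). These numbers of calls lie near the background, so the sizes and directions carry the description. At a change of at least 2-fold on the log2 scale, none of the 10 was called with MLX-WT (background 1.67%). Gsta4 and Sod3 were called at that size with MLX-DN (3.87%) and with MLX shRNA (1.51%). The median log2 change of the 10 was 0.12, 0.08 and -0.11 in the 3 comparisons, and over all tested genes it was -0.05, -0.08 and -0.02.

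Between the controls, 5 of the 10 differed, 2 higher and 3 lower with NT shRNA, beside 74.1% of tested genes. These were Sod3 and Hmox1, higher, and Gsta4, Gclm and Nqo1, lower, beside 37.0% of tested genes higher and 37.1% lower. Because of this, many changes are also given against the control of the other vector. Called in the same direction against both controls were 4 genes with MLX-WT (background 35.0%), 6 with MLX-DN (50.0%) and 6 with MLX shRNA (49.4%). With MLX-WT these were Gsta4, Gstm1 and Sod1, higher, and Gclc, lower. With MLX-DN they were Gsta4, Gclc and Sod2, higher, and Gclm, Sod1 and Txnrd1, lower. With MLX shRNA they were Gsta4 and Sod2, higher, and Gstm1, Nqo1, Sod1 and Sod3, lower. Gsta4 was therefore above both controls in all 3 MLX groups, and Sod1 was above both in MLX-WT cells and below both in the MLX-DN and MLX shRNA cells.

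The effects were also compared with each other. The shRNA effect differed from the MLX-DN effect for 9 of the 10 genes, beside 74.8% of all tested genes, and from the MLX-WT effect for 8, beside 65.4%. Each of these tests sets NT shRNA against the GFP control as well, so a difference between the controls enters it.

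**Figure D1:**
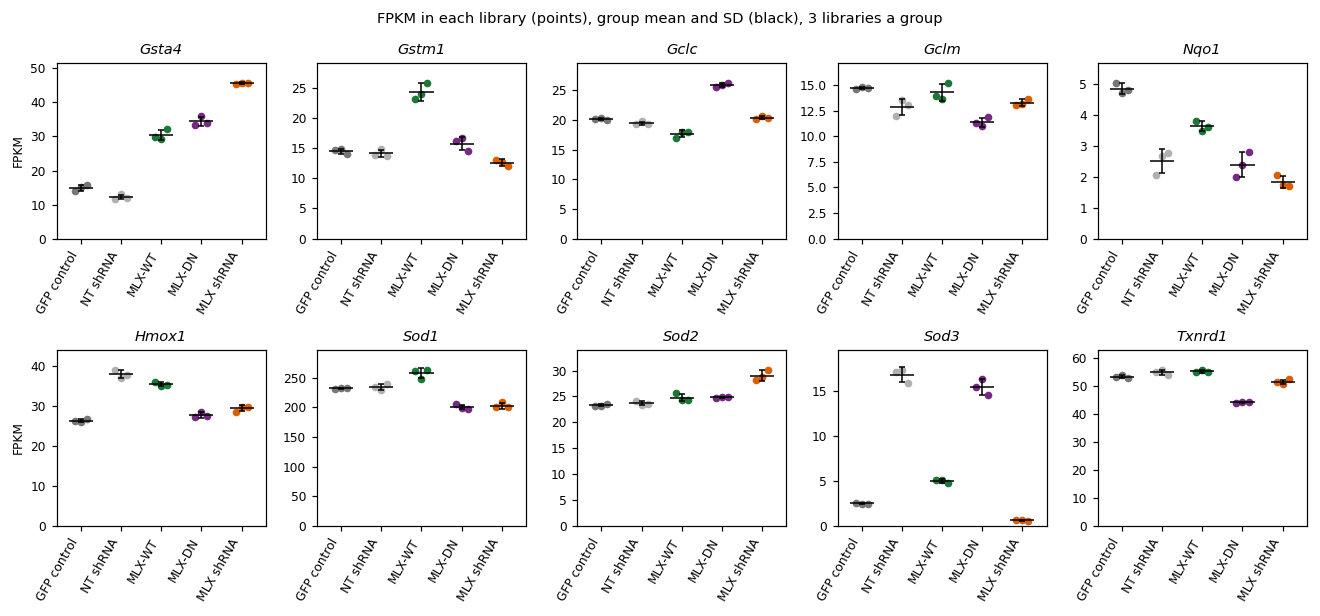
FPKM (linear axis from 0) of each of the 10 genes in the 5 groups; points are the 3 libraries of a group, and the black lines are the group mean and SD. Gsta4 rises from 12.2 in NT shRNA to 45.6 with MLX shRNA, Sod3 falls from 16.8 to 0.604 between the same groups, and the points of a group lie close together.

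Gsta4 encodes an alpha-class glutathione S-transferase known for conjugating 4-hydroxynonenal, an aldehyde formed when membrane lipids are oxidised. In the GFP control libraries it stood at 14.02, 15.1 and 15.7 FPKM, and in the NT shRNA libraries at 11.7, 13.04 and 12.03. It stood at 29.9, 29.2 and 32.1 with MLX-WT and at 33.3, 36.1 and 33.8 with MLX-DN. The MLX shRNA libraries gave 45.3, 45.8 and 45.8. No library of an MLX group came near either control, and the 5 groups did not overlap in the order MLX shRNA, MLX-DN, MLX-WT, GFP control, NT shRNA.

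The Gsta4 mean was 2.03 times the GFP control with MLX-WT, a log2 change of 0.94 (SE 0.0445, adjusted p = 4.23e-11 by limma). With MLX-DN it was 2.30 times (1.10, adjusted p = 2.87e-12). With MLX shRNA it was 3.73 times NT shRNA (1.74, adjusted p = 2.31e-14), a larger absolute change than in all but 0.352% of tested genes. Raising MLX and lowering MLX were thus both accompanied by more Gsta4 RNA. The difference of the shRNA effect from the MLX-DN effect was 0.64 (adjusted p = 2.08e-07) and from the MLX-WT effect 0.81 (2.14e-08). All neighbours in the order differed as well: MLX shRNA lay above MLX-DN by 0.39 (adjusted p = 1.38e-06), MLX-DN above MLX-WT by 0.17 (0.00315), and the GFP control above NT shRNA (0.000117). Estimated reads were 450 to 2331 per library. The labels describe a bulk culture, in which fewer cells of one kind and less RNA per cell cannot be told apart, here and for every gene below.

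In the RefSeq gene order Gsta4 lies in a run that starts with Gclc and ends with Gsta2. Gsta1, its close neighbour and another alpha-class transferase, was at 0.213 FPKM in the GFP control, 0.565 in NT shRNA, 1.55 with MLX-WT, 0.981 with MLX-DN and 3.25 in MLX shRNA cells. Gsta1 was higher with MLX shRNA than with NT shRNA by a log2 value of 1.03 (adjusted p = 6.38e-12 by limma), with MLX-WT by 0.68 (7.81e-10) and with MLX-DN by 0.43 (1.04e-07) than in the GFP control. Against the other control these differences were 1.25, 0.47 and 0.22. These low values are compressed on the log2(FPKM + 2) scale, which understates their change. Gsta1 was below 1 FPKM in every control library, so it passed the minimum for testing only through the MLX groups. That filter favoured a rise, and its calls add no separate support for one. Gsta2 did not reach the minimum for testing and averaged 0.221 FPKM in the GFP control, 0.181 in NT shRNA, 0.588 with MLX-WT, 0.410 with MLX-DN and 0.996 in MLX shRNA cells. Reads of Gsta1, Gsta2 and the predicted gene Gm3776 may be exchanged, since alpha-class copies are alike, and the sources used here do not give how multiply placed reads were counted. Elovl5, a fatty acid elongase that lies between Gclc and Gsta4, stayed between 20.5 and 22.7 FPKM in the 5 group means. Fbxo9, which also lies between them, averaged 18.1 FPKM in NT shRNA and 22.9 with MLX shRNA, a rise of 0.31 (adjusted p = 7.34e-07 by limma). Against the GFP control Fbxo9 was higher with MLX-DN by 0.19 (0.000109) and with MLX-WT by 0.06 (0.161). A change of the whole run was not tested.

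Gstm1, a mu-class transferase, showed another pattern: it was high with MLX-WT alone. The MLX-WT libraries gave 23.1, 24.0 and 25.9 FPKM. The GFP control gave 14.7, 14.8 and 13.99, and NT shRNA 13.8, 14.8 and 13.7. The MLX-DN libraries gave 16.2, 16.6 and 14.5 and the MLX shRNA libraries 13.1, 12.7 and 12.1. All 3 MLX-WT libraries lay above all 12 others, while the MLX-DN libraries reached down into the range of the controls.

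Gstm1 rose 1.68-fold with MLX-WT (log2 0.67, SE 0.0482, adjusted p = 5.81e-09 by limma) and was 0.70 above NT shRNA. The MLX-DN difference from the GFP control was 0.11 (adjusted p = 0.0558). That difference passed the threshold against NT shRNA (0.14, adjusted p = 0.0198) and without MLX-DN replicate 3 (adjusted p = 0.00538). It also passed after median centring (0.20, adjusted p = 0.00123) and quantile normalization (0.16, 0.00383), and without MLX-WT replicate 3 (0.0424). Gstm1 was lower with MLX shRNA by -0.14 (adjusted p = 0.0159), a call that was lost without NT shRNA replicate 2 (0.0766) or MLX shRNA replicate 3 (0.0709) and after median centring (0.102). Of the 1240 windows of 50 bases in its RefSeq transcript, 23.1% also occur in transcripts of other genes, Gstm3 and the pseudogene Gstm2-ps1 among them, so its level is uncertain to that extent. Gstm3 itself averaged at most 0.107 FPKM.

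The other glutathione S-transferases included 13 tested genes of 22 listed, and they moved in both directions. With MLX-WT 7 rose and 5 fell (median log2 change 0.16), with MLX-DN 4 rose and 5 fell (0.00), and with MLX shRNA 5 rose and 7 fell (-0.06). Mgst1, a membrane-bound transferase, averaged 3.36 FPKM in the GFP control, 2.78 in NT shRNA, 9.86 with MLX-WT, 3.51 with MLX-DN and 0.802 in MLX shRNA cells. It rose by 1.15 with MLX-WT (adjusted p = 2.47e-10 by limma) and fell by 0.77 with MLX shRNA (3.03e-08). Gstm2, a mu-class relative of Gstm1, was also highest with MLX-WT, at 19.5 FPKM against 11.9 in the GFP control and 6.85 in NT shRNA, and lowest with MLX shRNA at 4.70.

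Gstt1, a theta-class transferase, was at 0.489 FPKM in the GFP control, 0.575 in NT shRNA, 2.14 with MLX-WT, 0.575 with MLX-DN and 5.29 in MLX shRNA cells. Its log2 change was 1.498 with MLX shRNA (adjusted p = 5.92e-12 by limma) and 0.74 with MLX-WT (2.68e-08), and with MLX-DN it was 0.05 (0.444). Gstt1 was below 1 FPKM in every GFP control, NT shRNA and MLX-DN library. It passed the minimum for testing only through MLX-WT and MLX shRNA, so the filter favoured its rises, here and in the counts of the list. Gstp1, a pi-class transferase and the most abundant of the list at 203 FPKM in the GFP control, was at 142 in NT shRNA, 174 with MLX-WT, 117 with MLX-DN and 133 in MLX shRNA cells. It lay below the GFP control in each other group and fell by 0.79 with MLX-DN (adjusted p = 3.43e-12). Against NT shRNA that MLX-DN change was -0.27, and with MLX-WT the sign turned, from -0.22 to 0.29. Gstp1 and its near-identical neighbour Gstp2 may share reads.

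Both subunits of glutamate-cysteine ligase moved in MLX-DN, and in opposite directions. Gclc, the catalytic subunit, gave 25.6, 25.8 and 26.3 FPKM with MLX-DN and 17.02, 18.01 and 18.03 with MLX-WT. The GFP control gave 20.2, 20.3 and 19.99, NT shRNA 19.3, 19.8 and 19.3, and MLX shRNA 20.1, 20.6 and 20.4. The MLX-DN libraries were the highest 3 and the MLX-WT libraries the lowest 3 of all 15.

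Gclc rose 1.29-fold with MLX-DN (log2 0.33, SE 0.0246, adjusted p = 4.18e-09 by limma) and fell by 0.17 with MLX-WT (1.52e-05). Against NT shRNA these were 0.38 and -0.12, and MLX-DN lay 0.50 above MLX-WT (7.35e-11). With MLX shRNA the difference was 0.06 (adjusted p = 0.0397). That call was lost against the other control (0.618), without any 1 of GFP control replicate 1, NT shRNA replicates 1 and 3 and MLX shRNA replicates 2 and 3 (0.0502 to 0.105), and with only the groups compared in the fit (0.0986). The order of the means was MLX-DN, MLX shRNA, GFP control, NT shRNA, MLX-WT, and the middle 3 were not separated from their neighbours in that run (adjusted p = 0.618 and 0.0995).

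Gclm, the regulatory subunit, gave 11.3, 10.98 and 11.9 FPKM with MLX-DN. The GFP control gave 14.6, 14.8 and 14.7 and NT shRNA 12.02, 13.6 and 13.02, and MLX-WT gave 13.9, 13.7 and 15.2. The MLX shRNA libraries gave 13.1, 13.2 and 13.7. The MLX-DN libraries were the lowest of all 15, the highest of them being just under the lowest NT shRNA library.

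Gclm fell by 0.32 with MLX-DN (SE 0.0412, adjusted p = 2.78e-06 by limma) against the GFP control and by 0.15 against NT shRNA (0.00397). Its differences with MLX-WT (-0.04, adjusted p = 0.404) and with MLX shRNA (0.04, 0.384) did not pass the test. The sign of the MLX-WT difference turned to 0.03 after median centring and to 0.13 against NT shRNA. From the highest mean down, the order was GFP control, MLX-WT, MLX shRNA, NT shRNA, MLX-DN, and only the last pair of neighbours differed by the test. A share of 0.776% of its 50-base transcript windows is found in other genes, and 4.71% of its exon bases overlap Gm17494 on the opposite strand and 3.88% overlap Gm6061 on the same strand, neither of which is listed in the table.

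**Figure D2:**
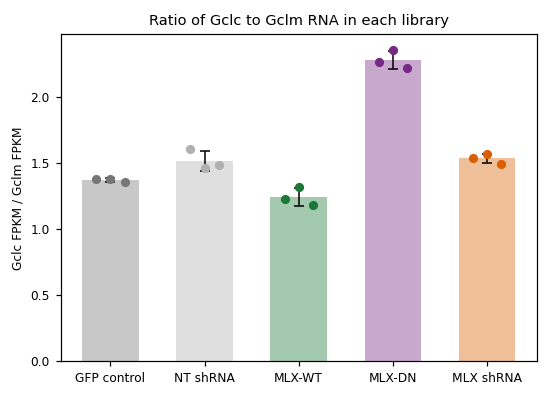
Ratio of Gclc FPKM to Gclm FPKM (no unit, axis from 0) in the 5 groups; points are the 3 libraries, bars the group mean and error bars the SD. The MLX-DN libraries, at 2.22 to 2.35, lie above all others, and the MLX-WT libraries, at 1.18 to 1.32, are the lowest 3.

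The ratio of Gclc to Gclm FPKM, a measure chosen after the values had been seen, was 1.38, 1.38 and 1.36 in the GFP control libraries and 1.60, 1.46 and 1.48 in NT shRNA. With MLX-WT it was 1.23, 1.32 and 1.18, and with MLX shRNA 1.54, 1.57 and 1.49. With MLX-DN it was 2.27, 2.35 and 2.22. The mean of 2.28 ± 0.0679 (SD, n = 3) with MLX-DN lay above every library of the other groups. On the log2 scale the ratio was 0.73 higher with MLX-DN than in the GFP control, and the MLX-WT difference was -0.14. The controls themselves differed by 0.14, NT shRNA being higher. Each of the 3 gave an exact two-sided permutation p of 0.1, the smallest that 3 libraries against 3 allow. With MLX shRNA the ratio differed from NT shRNA by 0.02, the libraries overlapped and the exact permutation p was 0.7. RNA ratios do not measure the ratio of the proteins.

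The wider list of glutathione synthesis, recycling and breakdown genes held 17 tested genes of 18. More of them rose than fell in each MLX group against its own control. With MLX-WT 9 rose and 6 fell (median 0.13), with MLX-DN 9 rose and 4 fell (0.12), and with MLX shRNA 9 rose and 5 fell (0.12). Against the other control the counts were 8 and 7 with MLX-WT (median -0.03), 9 and 5 with MLX-DN (0.08) and 8 and 5 with MLX shRNA (0.02). Between MLX-DN and MLX-WT, 5 were higher and 6 lower with MLX-DN (0.00). Ggct, gamma-glutamylcyclotransferase, which acts in glutathione breakdown, averaged 4.48 FPKM in the GFP control, 6.75 in NT shRNA, 5.84 with MLX-WT, 9.54 with MLX-DN and 13.8 in MLX shRNA cells. It rose by 0.85 with MLX shRNA (adjusted p = 8.04e-10 by limma) and by 0.83 with MLX-DN (4.58e-10), and against the other control these were 1.28 and 0.40. Gsr, glutathione reductase, averaged 10.4 FPKM in the GFP control and 13.8 in each of MLX-WT and MLX-DN. It stood at 19.3 in NT shRNA and 19.1 with MLX shRNA, so its level in both shRNA groups was above the other 3. Glo1, glyoxalase I, which uses glutathione to clear methylglyoxal, was at 87.7 FPKM in NT shRNA and 113 with MLX shRNA, a rise of 0.36 (1.58e-09) that was 0.21 against the GFP control. Ggt5, a gamma-glutamyl transferase family enzyme, was at 1.55 FPKM with MLX-WT and at most 0.232 in every other group. It passed the minimum for testing only through MLX-WT, so the filter favoured its place among the genes that rose there.

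The 3 genes that were lower with MLX-DN than in both controls, Gclm, Txnrd1 and Sod1, were also the 3 in whose promoter window an antioxidant response element core was found, among 6 genes with a window. This overlap uses calls from these same data and was not tested. Of all tested genes, 48.8% were called lower with MLX-DN than in the GFP control and 48.7% lower than in NT shRNA, so such falls were common. Nqo1, which had a window but no core, fell most of the 10 with MLX-DN against the GFP control (-0.65). The core was searched as TGACNNNGC on both strands, in the 250 bases before and the 50 after each start in the RefSeq promoter table (GRCm38.p6, whereas the submitters' processing notes name mm9 for the data). The table held 9 promoters of 6 of the 10 genes, namely Gstm1, Gclm, Nqo1, Txnrd1, Sod1 and Sod2, and 3 of the 9 held the core. Of all 32851 promoters in the table, 12.4% did. The 69 bases around each core are shown on the plus strand, 5′ to 3′, because these genes were lower together with MLX-DN, though not all of them in another MLX group; capitals mark the core, which reads TGACNNNGC on the opposite strand.
Gclm, chr3:122245393-122245461, plus strand: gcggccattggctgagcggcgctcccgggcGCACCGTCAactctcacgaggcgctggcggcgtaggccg
Txnrd1, 1 of its 3 starts, chr10:82859084-82859152, plus strand: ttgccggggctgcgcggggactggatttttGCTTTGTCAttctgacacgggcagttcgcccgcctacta
Sod1, chr16:90220676-90220744, plus strand: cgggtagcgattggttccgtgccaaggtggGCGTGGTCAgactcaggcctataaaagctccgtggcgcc

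The core began 134 bases before the start in Gclm, 92 in Txnrd1 and 56 in Sod1. The AP-1 letters TGACTCA, present in 5.20% of all promoters, and the E-box letters CACGTG, present in 7.15%, were found in none of the 9. A match describes letters in a window and is not a bound site, and no binding was measured here. Known elements of such genes can lie far outside a window of this length.

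Txnrd1 encodes cytosolic thioredoxin reductase. The MLX-DN libraries gave 44.0, 44.5 and 44.2 FPKM. The GFP control gave 53.1, 53.9 and 52.9, NT shRNA 55.0, 55.9 and 53.9, MLX-WT 55.1, 55.9 and 55.0, and MLX shRNA 51.4, 50.9 and 52.4. The MLX-DN libraries stood below all 12 others.

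Txnrd1 fell by 0.26 with MLX-DN (SE 0.0204, adjusted p = 9.37e-09 by limma) and by 0.30 against NT shRNA. Its change with MLX shRNA was -0.09 (0.00137), lost after median centring (0.175) and against the GFP control (0.0513). The 0.05 rise with MLX-WT (0.0318) was lost against NT shRNA (0.648), after quantile normalization (0.379), and without GFP control replicate 1 or 3 (0.0783 and 0.0942) or MLX-WT replicate 1 or 2 (0.0548 and 0.102). In the order MLX-WT, NT shRNA, GFP control, MLX shRNA, the differences between neighbours did not pass the test (adjusted p = 0.648, 0.0782 and 0.0513).

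Nqo1, a quinone reductase widely used as an NRF2 marker, was expressed at a low level and was highest in the GFP control, at 5.05, 4.72 and 4.81 FPKM. It was at 2.06, 2.69 and 2.78 in NT shRNA and at 3.82, 3.50 and 3.61 with MLX-WT. The MLX-DN libraries gave 1.99, 2.38 and 2.82 and the MLX shRNA libraries 2.07, 1.75 and 1.70. NT shRNA, MLX-DN and MLX shRNA overlapped one another, and MLX-WT lay between them and the GFP control.

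Against the GFP control, Nqo1 was lower with MLX-DN by a log2 value of -0.65 (SE 0.0663, adjusted p = 2.14e-07 by limma) and with MLX-WT by -0.28 (0.00138). NT shRNA was below the GFP control by nearly as much as MLX-DN, at -0.61 (6.58e-07). Against NT shRNA the MLX-DN difference was -0.04 (0.629) and the MLX-WT difference turned to 0.33 (0.000436). Nqo1 was lower with MLX shRNA than with NT shRNA by -0.23 (0.00606), although the libraries overlapped, and lower than the GFP control by -0.84 (9.36e-09). The call against NT shRNA was lost after quantile normalization (0.0536). Between 100 and 649 reads per library were estimated for this gene, and on the log2(FPKM + 2) scale its change is understated: the mean with MLX-DN was 0.493 times the GFP control.

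Hmox1 encodes heme oxygenase 1, which breaks down heme and is regulated by both NRF2 and BACH1. It gave 26.1, 26.0 and 26.7 FPKM in the GFP control and 39.0, 36.9 and 37.8 in NT shRNA. MLX-WT gave 36.0, 35.1 and 35.3, MLX-DN 27.2, 28.5 and 27.5 and MLX shRNA 28.5, 29.8 and 29.8. NT shRNA and MLX-WT were the high groups, and the other 3 lay close together.

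Hmox1 rose by 0.41 with MLX-WT (adjusted p = 1.97e-09 by limma) and fell by 0.35 with MLX shRNA (1.34e-08) against their own controls. The controls themselves differed by 0.50 (1.41e-10), the largest difference between them among the 10 genes after Sod3 and Nqo1. Against the other control the MLX-WT change was -0.09 (0.00625) and the MLX shRNA change 0.15 (8.56e-05), so both turned sign. The MLX-DN difference of 0.07 (0.0179) turned to -0.42 (2.70e-09), and its call was lost without GFP control replicate 2 (0.0577) or MLX-DN replicate 2 (0.0903). In the comparison of MLX-DN with MLX-WT, which uses neither control, the log2 change was -0.33 (2.36e-08).

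**Figure D3:**
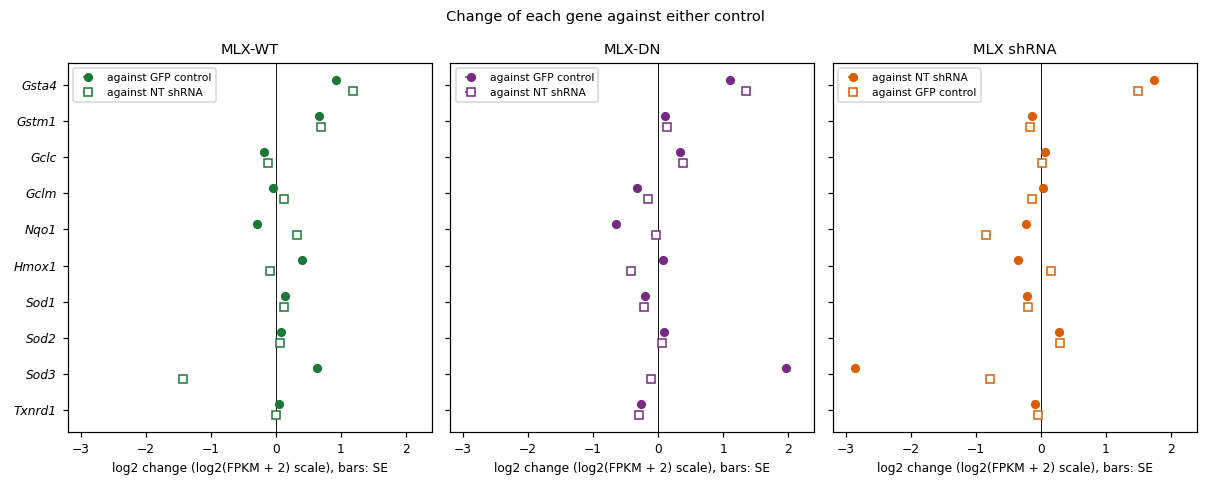
Log2 change on the log2(FPKM + 2) scale, with its standard error, of each of the 10 genes in the 3 MLX groups, each against its own control (filled symbols) and against the other control (open symbols). Gsta4 lies above 0 in all 6 contrasts, whereas Hmox1 crosses 0 in all 3 MLX groups when the control is exchanged. Sod3 crosses 0 with MLX-WT, from 0.64 to -1.43, and with MLX-DN, but stays below 0 with MLX shRNA. Nqo1 crosses 0 with MLX-WT, from -0.28 to 0.33, and Gclm with MLX-WT and MLX shRNA. Many error bars are smaller than their symbols.

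Sod1 encodes the copper-zinc superoxide dismutase of the cytosol and was the most abundant of the 10 per transcript length. It gave 230.1, 233 and 232 FPKM in the GFP control, 234, 229.7 and 239.6 in NT shRNA and 261, 248 and 264 with MLX-WT. The MLX-DN libraries gave 205, 199.6 and 197 and the MLX shRNA libraries 199.8, 208 and 200.2. The MLX-WT libraries were the highest 3 of 15, and the MLX-DN and MLX shRNA libraries all lay below both controls.

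Sod1 rose by 0.15 with MLX-WT (SE 0.0264, adjusted p = 0.000118 by limma), fell by 0.21 with MLX-DN (2.58e-06) and fell by 0.21 with MLX shRNA (4.29e-06). The shRNA effect differed from the MLX-WT effect by -0.36 (6.44e-07). The controls differed by 0.02 (0.598), and MLX-DN and MLX shRNA by an adjusted p of 0.603, so the order was MLX-WT, then both controls, then MLX shRNA and MLX-DN. The mean was 1.11 times the control with MLX-WT and 0.865 times with either of the other constructs. A share of 23.1% of its 592 transcript windows of 50 bases also occurs in the pseudogene Gm8566, so the level is uncertain to that extent.

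Sod2, the manganese superoxide dismutase of mitochondria, gave 28.2, 28.8 and 30.2 FPKM with MLX shRNA. The GFP control gave 23.2, 23.2 and 23.5, NT shRNA 24.2, 23.4 and 23.5, MLX-WT 25.6, 24.4 and 24.3, and MLX-DN 24.8, 25.0 and 24.9. The MLX shRNA libraries stood above all others, and the other 4 groups lay within a narrow range. Sod2 rose 1.23-fold with MLX shRNA (log2 0.27, SE 0.0271, adjusted p = 2.72e-07 by limma). Its rises with MLX-DN (0.09, 0.00776) and MLX-WT (0.08, 0.0140) were small. The MLX-WT call was lost against NT shRNA (0.0600) and without MLX-WT replicate 1 (0.0832).

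Sod3 encodes the extracellular superoxide dismutase, a secreted enzyme that binds to the surface of cells and to matrix, and it had the widest range of the 10. It gave 2.55, 2.48 and 2.43 FPKM in the GFP control and 17.2, 17.4 and 15.9 in NT shRNA. MLX-WT gave 5.15, 5.05 and 4.76, MLX-DN 15.5, 16.3 and 14.6, and MLX shRNA 0.687, 0.593 and 0.533. Apart from NT shRNA and MLX-DN, which overlapped, the groups were fully separated.

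Sod3 was 27.8-fold lower with MLX shRNA than with NT shRNA (log2 -2.85, SE 0.0412, adjusted p = 3.03e-17 by limma), and 4 of the 11945 tested genes (0.0335%) had a larger absolute change. It was 6.21 times the GFP control with MLX-DN (1.96, adjusted p = 1.34e-15) and 2.005 times with MLX-WT (0.64, 1.68e-09). NT shRNA itself was 6.76 times the GFP control (2.07, 1.04e-15), a difference as large as that with MLX-DN. Exchanging the control left the fall with MLX shRNA at -0.79 (5.78e-11), turned the MLX-WT change to -1.43 (1.51e-13) and turned the MLX-DN change to -0.11 (0.0290). The comparison of MLX-DN with MLX-WT, which needs no control, gave 1.32 (3.69e-13). The MLX shRNA level rested on an estimated 82 to 104 reads per library, and the highest library of any group on 3805.

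Fibroblast markers differed between the groups too, and their part in the Sod3 values was not tested. Of the 5 on the list (Pdgfra, Dpt, Thy1, Lum and Dcn), 4 reached 1 FPKM in some library, and none was at 0 throughout. They summed to 12.1 to 12.3 FPKM in the GFP control, 24.1 to 25.4 in NT shRNA, 11.7 to 12.1 in MLX-WT, 5.91 to 6.61 in MLX-DN and 1.77 to 2.18 in MLX shRNA cells. The sum was highest in NT shRNA and lowest with MLX shRNA, as Sod3 was. Dcn, the largest part of the sum in NT shRNA, averaged 17.02 FPKM there, 9.12 in the GFP control and 0.445 with MLX shRNA. Lum was also highest in NT shRNA and lowest with MLX shRNA. Pdgfra was lowest with MLX shRNA at 0.886, but it averaged 2.06 in NT shRNA, 2.56 in the GFP control and 2.87 with MLX-WT. Dpt was highest in NT shRNA at 4.65 but lowest in the GFP control at 0.439, with 0.647 in MLX shRNA cells. Thy1 averaged at most 0.0219 FPKM. With MLX-DN the sum lay below that of the GFP control, and Sod3 lay above it.

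Among the tested genes whose centred log2 group means lay closest to those of Sod3 over the 5 groups were Mfap5 and Fxyd6, with root mean square differences of 0.313 and 0.372. Mfap5, a microfibril protein of the matrix, averaged 2.75 FPKM in the GFP control, 19.97 in NT shRNA, 2.74 with MLX-WT, 12.4 with MLX-DN and 1.07 in MLX shRNA cells. Fxyd6, a regulator of the sodium pump, averaged 1.81, 10.8, 2.38, 13.3 and 1.42 FPKM in the same order. Both were high in NT shRNA and MLX-DN and lowest with MLX shRNA.

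For Gsta4 the closest genes were Bglap, Ankrd1 and Trp53inp2, with root mean square differences of 0.249, 0.253 and 0.309. Ankrd1, a stress-responsive muscle ankyrin repeat protein, averaged 463 FPKM in the GFP control, 560.0 in NT shRNA, 1088 with MLX-WT, 924 with MLX-DN and 1198 in MLX shRNA cells. Bglap, which encodes osteocalcin, had means of at most 0.432 FPKM in the controls and was at 2.81 to 3.29 in the MLX groups. The log2(FPKM + 2) scale compresses its low control values and so understates how far Bglap and Gsta4 differ. Its mean was highest with MLX-WT, the MLX group where Gsta4 was lowest, with SDs of 0.572 to 0.772 FPKM in the MLX groups. Trp53inp2 was at 37.2 FPKM in the GFP control, 19.8 in NT shRNA, and 45.2, 57.2 and 55.1 with MLX-WT, MLX-DN and MLX shRNA. These likenesses describe 5 group means and carry no test.

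**Figure D4:**
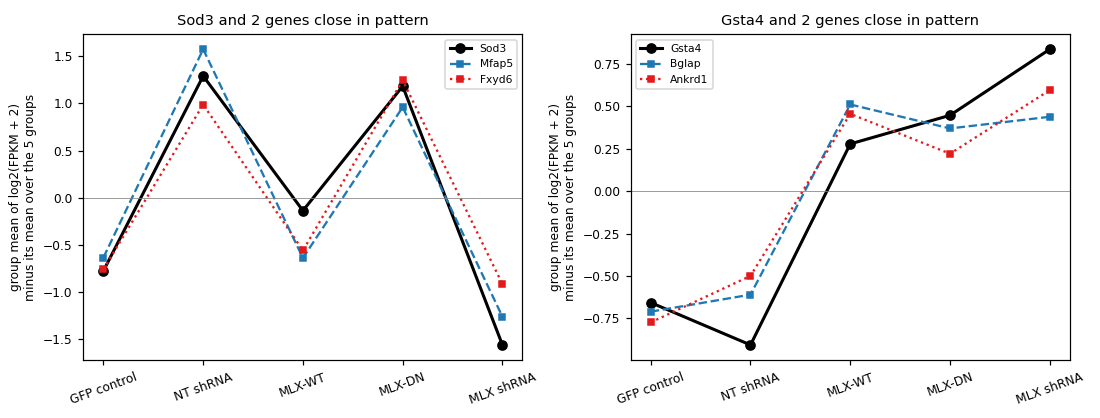
Centred log2 group means (log2 scale, 0 is the gene's mean over the 5 groups) of Sod3 and of Gsta4, each with 2 of the tested genes closest to it. Sod3, Mfap5 and Fxyd6 are all highest in NT shRNA or MLX-DN and lowest with MLX shRNA, while Gsta4, Bglap and Ankrd1 are lower in both controls than in the 3 MLX groups.

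Among the regulators, Nfe2l2 RNA was highest in the GFP control at 40.9 ± 1.20 FPKM (SD, n = 3). It was at 36.9 ± 1.34 in NT shRNA, 32.9 ± 1.10 with MLX-WT, 37.1 ± 0.901 with MLX-DN and 35.6 ± 0.411 in MLX shRNA cells. It fell by 0.30 with MLX-WT (adjusted p = 5.23e-07 by limma) and by 0.13 with MLX-DN (0.000961), and its difference with MLX shRNA was -0.05 (0.182). The MLX-WT change was -0.15 against NT shRNA (0.000406), and the MLX-DN change was then 0.01 (0.849).

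Keap1 was at 10.5 FPKM in the GFP control, 9.05 in NT shRNA, 9.15 with MLX-WT, 8.26 with MLX-DN and 11.2 in MLX shRNA cells. It rose by 0.25 with MLX shRNA (adjusted p = 8.72e-06 by limma), and the difference from the GFP control was 0.08 (0.0543). Keap1 fell by 0.28 with MLX-DN (1.46e-06) and by 0.16 with MLX-WT (0.000565), which were -0.11 and 0.01 against NT shRNA. Bach1 was at 16.02 FPKM in NT shRNA and 14.8 with MLX-DN, and at 11.3, 11.04 and 12.002 in the GFP control, MLX-WT and MLX shRNA. It rose by 0.33 with MLX-DN (7.18e-09) and fell by 0.36 with MLX shRNA (5.24e-09). Against the other control these were -0.10 and 0.07. These RNA levels say nothing of how much of each protein is active. Over all 10 tested regulators, 4 rose and 2 fell with MLX-WT, 4 rose and 5 fell with MLX-DN, and 3 rose and 3 fell with MLX shRNA. Against NT shRNA, 2 rose and 4 fell with MLX-WT and 1 rose and 7 fell with MLX-DN.

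The 18 other NRF2 target enzymes and transporters, all tested, differed between MLX-WT and MLX-DN in direction. With MLX-WT 13 rose and 3 fell (median 0.17), and with MLX-DN 1 rose and 12 fell (-0.25). With MLX shRNA 7 rose and 10 fell (-0.18). Between the controls, 3 were higher and 10 lower in NT shRNA than in the GFP control (median -0.17). The background there was 37.0% of all tested genes higher and 37.1% lower. Much of the fall with MLX-DN against the GFP control was thus also seen with NT shRNA. Against NT shRNA, 14 rose and 3 fell with MLX-WT (25.7% and 44.3% of all tested genes) and 2 rose and 9 fell with MLX-DN (21.0% and 48.7%). After median centring 4 rose with MLX-DN and after quantile normalization 6. In the direct comparison of the MLX constructs, where 72.1% of all tested genes were called, 1 was higher and 16 were lower with MLX-DN than with MLX-WT (median -0.33), beside 33.2% of all tested genes higher and 38.9% lower. Of the 10 genes followed here, 3 were higher and 6 lower in that comparison (median -0.30).

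G6pdx, the first enzyme of the pentose phosphate pathway and a source of the NADPH that reduces glutathione, averaged 32.7 FPKM in the GFP control, 23.3 in NT shRNA, 39.9 with MLX-WT, 19.4 with MLX-DN and 14.1 in MLX shRNA cells. It rose by 0.27 with MLX-WT (adjusted p = 8.21e-07 by limma) and fell by 0.70 with MLX-DN (5.51e-12) and by 0.64 with MLX shRNA (3.33e-11), and against the other control these changes were 0.73, -0.24 and -1.11. Idh1, cytosolic isocitrate dehydrogenase and another source of NADPH, fell by 0.70 with MLX shRNA (5.15e-12), from 28.3 to 16.7 FPKM, and by 1.18 against the GFP control. Sqstm1, the autophagy adaptor p62, rose by 0.26 with MLX-WT (1.10e-07) and fell by 0.45 with MLX shRNA (1.56e-10), with 221 FPKM in the GFP control, 264 with MLX-WT, 215 in NT shRNA and 157 with MLX shRNA. Akr1b8, an aldo-keto reductase, was lower in all 3 MLX groups, at 75.7 and 75.0 FPKM with MLX-WT and MLX-DN against 103 in the GFP control, and at 56.8 with MLX shRNA against 86.9. The log2 changes were -0.44, -0.45 and -0.60, and -0.19, -0.21 and -0.84 against the other control. Ephx1, epoxide hydrolase, fell by 1.08 with MLX-DN (5.68e-14). It was at 34.6 FPKM in the GFP control but at 18.4 in NT shRNA, against which the MLX-DN change was -0.23.

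**Figure D5:**
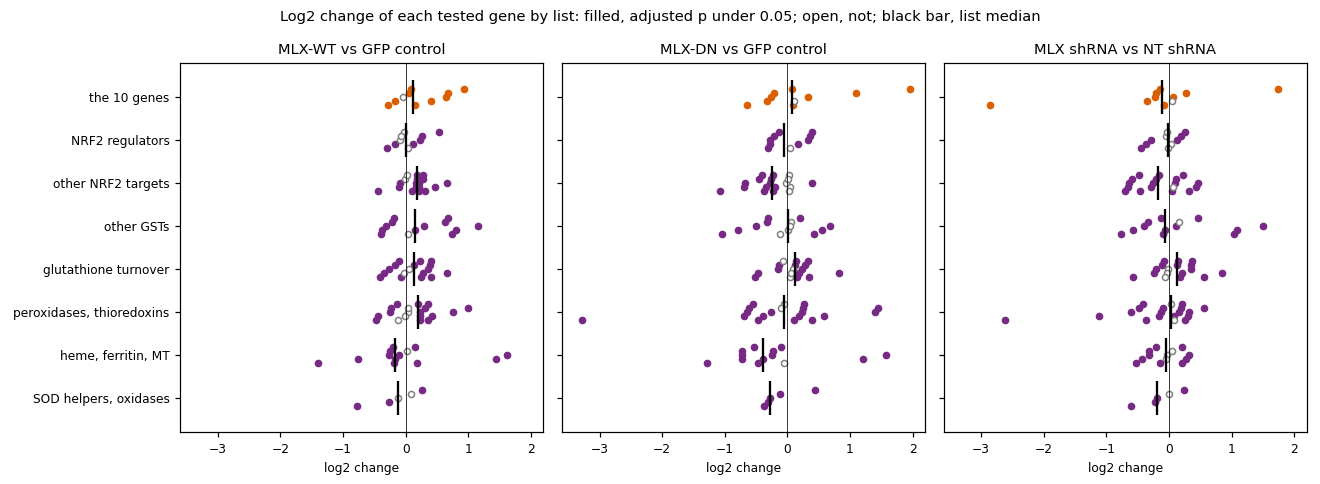
Log2 changes of the tested genes of each list (points, filled where the adjusted p is under 0.05 and open where not; the 10 genes in orange) with the list median (black bar), for the 3 MLX groups, each against its own control. The other NRF2 targets lie mostly above 0 with MLX-WT, median 0.17, and below 0 with MLX-DN, median -0.25, while the other glutathione S-transferases spread to both sides.

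Of the catalase, glutathione peroxidase, peroxiredoxin and thioredoxin genes, 19 of 20 were tested. With MLX-WT 10 rose and 5 fell, with MLX-DN 9 rose and 8 fell, and with MLX shRNA 8 rose and 9 fell, and against NT shRNA the numbers that rose were 6 with MLX-WT and 4 with MLX-DN. Prdx2, a cytosolic peroxiredoxin, was at 289 FPKM in the GFP control, 723 in NT shRNA, 579 with MLX-WT, 767 with MLX-DN and 1067 in MLX shRNA cells. It rose by 0.56 with MLX shRNA (adjusted p = 3.67e-11 by limma) and by 1.88 against the GFP control. Its 0.996 rise with MLX-WT against the GFP control turned to -0.32 against NT shRNA. Prdx5 was highest with MLX-WT, at 371 FPKM against 218 in the GFP control and 256 in NT shRNA, a rise of 0.76 (3.34e-12). Gpx3, a secreted glutathione peroxidase, averaged 15.2 FPKM in the GFP control, 31.7 in NT shRNA, 15.7 with MLX-WT, 45.2 with MLX-DN and 13.5 in MLX shRNA cells. It rose by 1.45 with MLX-DN (2.71e-16) and fell by 1.121 with MLX shRNA (8.88e-15). Against the other control these changes were 0.49 and -0.15. Like Sod3, the other secreted enzyme described here, Gpx3 was high in NT shRNA and MLX-DN and low in the other 3 groups.

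Among heme, ferritin and metallothionein genes, 13 of 14 were tested. With MLX-WT 4 rose and 8 fell, with MLX-DN 2 rose and 10 fell, and with MLX shRNA 4 rose and 6 fell, and exchanging the control gave 7 and 3 for MLX-WT, 1 and 7 for MLX-DN and 4 and 9 in MLX shRNA cells (37.3% and 42.8% of all tested genes). Mt2, a metallothionein that binds zinc and copper, was low in the GFP control alone, at 54.4 FPKM, and at 165 to 184 in the other 4 groups. Slc40a1, the iron exporter ferroportin, was at 6.27 FPKM in the GFP control and 2.202 in NT shRNA, and lower in the MLX groups at 1.13, 1.39 and 0.900 with MLX-WT, MLX-DN and MLX shRNA. It fell by 1.40, 1.29 and 0.53 against the own control (adjusted p = 1.65e-13, 2.05e-13 and 1.74e-08 by limma), and against the other control the changes were -0.42, -0.31 and -1.51. Fth1, the ferritin heavy chain that stores iron, was at 981 FPKM in the GFP control and 1083 with MLX-WT. It was at 574 in NT shRNA, 596 with MLX-DN and 664 in MLX shRNA cells.

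Of the list of superoxide dismutase helpers and sources of superoxide, 5 of 12 genes were tested, with 1 higher and 2 lower for MLX-WT, 1 and 4 for MLX-DN and 1 and 3 in MLX shRNA cells. Nox4, an NADPH oxidase that makes hydrogen peroxide, fell in all 3 MLX groups. It averaged 2.94 FPKM in the GFP control, 2.50 in NT shRNA, 0.887 with MLX-WT, 1.98 with MLX-DN and 0.960 in MLX shRNA cells. The log2 changes were -0.77, -0.31 and -0.60 (adjusted p = 3.46e-12, 9.79e-08 and 7.82e-11 by limma), with -0.64, -0.18 and -0.74 against the other control. Every library of the MLX groups lay below every control library for this gene.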

How the data were processed

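The authors deposited 1 table of log2 values for 15 libraries of poly(A) RNA, made with a stranded kit per the labels' protocols. CASAVA, TopHat2, STAR and the build mm9 are named in the submitters' processing notes, without roles or versions; no source used here says if counting used strand. Since all 15 libraries have 1 as their lowest value, the deposited unit was taken as log2(FPKM + 2), from which FPKM was computed. Were they 1 + log2(FPKM + 1), every FPKM would be smaller by the same factor, with ratios and log2 changes unchanged. Fewer genes could then pass the minimum of 1 FPKM, which would alter the adjusted p-values and background shares. The depth estimates would be larger by that factor. Log2 changes are on that scale, which understates low genes; values given as times or fold are ratios of mean FPKM. The table holds no counts; depth was estimated from steps between low values over 14094 genes with 1 RefSeq length (62.6% to 67.4% of low values fell 0.05 or less from a whole read).

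Genes of at least 1 FPKM in at least 3 libraries (11945) were tested with limma 3.58.1 (R 4.3.3): 1 mean per group, trended variance, 10 residual degrees of freedom, two-sided, Benjamini-Hochberg over all tested genes of a comparison, threshold 0.05. The fit was tested on simulated data. The ratio used exact permutation (scipy 1.17.1). Alternatives were other offsets, filters, scalings and variance models, other library sets, the other control, each library left out in turn and a replicate block. Named were the 10 members, Mlx, Nfe2l2, Keap1 and Bach1, up to 2 called genes of lowest p per list and comparison (not all are printed), and the 3 genes most like each member that spans 1 log2 unit; a result the rule selects is not reported here. Gsta2, Gm3776, Elovl5, Fbxo9, Gstm3, Ptprc and the values of named genes in other comparisons were added after their values were seen. So were the levels of single muscle and fibroblast markers. Members and lists were chosen with earlier results of these data known.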

Additional observations from a re-analysis of the deposited data

Results flagged for a closer look

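Of the 10 genes, 9 had an effect of MLX shRNA (against NT shRNA) that differed from the effect of MLX-DN (against the GFP control) in a limma test of the difference itself, beside 74.8% of all tested genes. The effects share no library, but each carries its own control, and the controls differed. For Sod3 the difference of the log2 effects was -4.81 (adjusted p = 8.81e-18), a fall beside a rise, and for Hmox1 it was -0.42 (6.77e-08), again with opposite signs. Gclc differed by -0.27 (3.69e-06) and Gstm1 by -0.25 (0.00405). Positive differences were 0.64 for Gsta4, 0.42 for Nqo1, 0.36 for Gclm, 0.19 for Sod2 and 0.17 for Txnrd1 (adjusted p = 2.08e-07 to 0.000903). Set directly against MLX-DN, without either control, MLX shRNA differed by 0.08 for Hmox1 and -0.19 for Nqo1, both of the other sign. For Sod3 that direct value was -2.74. Gsta4, Gstm1, Gclc, Gclm, Sod2 and Txnrd1 kept their sign there, though the vectors differ in that comparison too. The Sod1 effects were equal to 2 decimals, -0.21 each, but after quantile normalization they differed by -0.11 (adjusted p = 0.0118).

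The shRNA effect differed from the MLX-WT effect for 8 of the 10, beside 65.4% of tested genes. Sod3 differed by -3.49 (adjusted p = 3.78e-16 by limma), Gstm1 by -0.82, Hmox1 by -0.76, Sod1 by -0.36 and Txnrd1 by -0.14. Gsta4 differed by 0.81, Gclc by 0.23 and Sod2 by 0.19. Gclm (0.08, adjusted p = 0.234) and Nqo1 (0.05, 0.641) did not pass.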

How the results depend on the processing

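Over the 70 values of the 10 genes in 7 comparisons, 1724 of 1773 alternative values kept their direction and side of the threshold, 25 lost a call, 9 gained one and 15 turned sign. Against the other control with MLX-WT, Gclm turned to 0.13, Nqo1 to 0.33, Hmox1 to -0.092, Sod3 to -1.43, Slc3a2 to -0.13, Prdx2 to -0.32, Mt2 to -0.10, Slc31a1 to -0.12 and Keap1 to 0.0136. With MLX-DN, Hmox1 turned to -0.42, Sod3 to -0.11, Bach1 to -0.10, Mafk to -0.016, Mt2 to -0.15 and Nfe2l2 to 0.00714. With MLX shRNA, Gclm turned to -0.13, Hmox1 to 0.15, Bach1 to 0.0736 and Atox1 to -0.0113. Scaling turned values near 0: with MLX-WT, Gclm was 0.0288 centred and 0.00778 with quantile normalization and Bach1 0.039 and 0.0332, and with MLX shRNA Nfe2l2 was 0.00553 centred. The shRNA minus MLX-WT effect of Nqo1 turned to -0.0152 at an offset of 0.1. Leaving out 1 library gave ranges that cross 0 for Gclm with MLX shRNA (-0.00042 to 0.0755), Sod2 between MLX-DN and MLX-WT (-0.0069 to 0.0288) and that Nqo1 difference (-0.0217 to 0.0966). Of 2492 alternative counts of the lists, 49 moved by over 1.5 times. After median centring, the other transferases that fell with MLX shRNA went from 7 to 4, the heme list's falls with MLX-WT from 8 to 5, and the glutathione list's falls with MLX-DN from 4 to 2 and with MLX shRNA from 5 to 3. Without a filter on low values, the other transferases that rose with MLX-WT went from 7 to 11 and with MLX shRNA from 5 to 9, and those that fell with MLX-DN from 5 to 8.

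Same-numbered libraries correlated at -0.0933 to 0.182 in their deviations. Libraries with different numbers were not compared, so these values cannot decide if the numbers mark a pairing. With a replicate block, 8427 genes were called with MLX-WT, 9754 with MLX-DN, 8394 with MLX shRNA, 8642 between MLX-DN and MLX-WT and 8861 between the controls, and the numbers among the 10 were 9, 9, 9, 9 and 5, as without it. Nqo1 was not tested at a minimum of 5 FPKM. Where the sign turned, the cause was not tested beyond the exchange of control or scaling itself. Depth limits Sod3 in MLX shRNA and Nqo1 most, at 82 to 104 and 100 to 649 estimated reads.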
